A study of Mus musculus with 9 samples.

Results

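SINE B1 copies are the repeat copies that the annotation places in the class SINE and the family Alu, and they were taken by these 2 labels from the table of repeat expression. The rule found 7289 of the 38385 listed copies (19.0%), under 16 of the 1042 repeat names. The libraries were mouse J1 embryonic stem cells (ESCs) of 3 kinds: wild type (WT), Dnmt1-/- cells derived from J1 (1KO), and 1KO cells that carry a transgene for catalytically inactive DNMT1 (C1229S) under the CAG promoter (1KO+1CI), which were an isolated clone. Each kind was sequenced as poly(A) RNA at days 0, 2 and 4 of differentiation through embryoid bodies towards epiblast-like cells. The 9 conditions have 1 library each. The cells had been grown on mitomycin-treated fibroblast feeders, which were removed by plating on gelatin before use.

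B1 elements are short, non-coding retrotransposons of rodents that descend from 7SL RNA, the RNA of the signal recognition particle, as do the Alu elements of primates. An intact B1 carries an internal RNA polymerase III promoter and is copied in trans by the enzymes of L1 elements. Many copies lie inside introns and untranslated regions of genes, so a read on a B1 copy can come from a polymerase III transcript of the element or from the RNA of the gene around it. PB1 names are the oldest, monomeric proto-B1 elements, B1F and B1_Mur are intermediate, and B1_Mm and B1_Mus are the youngest. In the mouse genome B1 DNA is densely methylated, and DNMT1 is the enzyme that copies methylation to the new strand at replication.

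The unit was FPKM, the reads on a copy scaled to its length and to the counted reads of the library. FPKM values of 7241 B1 copies (99.3%) were whole multiples of 1 step per copy in all 9 libraries, and 1 step was read as 1 read. On that reading the libraries held between 20.3 M and 28.0 M counted reads, B1 copies had 93656 to 130083 reads, or 0.461% to 0.521% of them, and the median B1 copy had 5 to 8 reads in a library. Between 6.10% and 13.5% of the B1 copies stood on 1 read, depending on the library. Each listed copy had a value above 0 in all 9 libraries, so a B1 copy without a read in any 1 of them is not analysed here. Dnmt1 itself read 74.0, 13.7 and 315 FPKM in WT, 1KO and 1KO+1CI cells at day 0, 80.4, 17.4 and 129 at day 2, and 48.5, 12.3 and 158 at day 4 so 1KO was the lowest line on each day. The 6 feeder fibroblast markers summed to 115, 279 and 299 FPKM at day 0 and to 16.5 to 48.3 FPKM at days 2 and 4. The 6 pluripotency markers summed to 1394 to 1693 FPKM at day 0 and to 896 to 1184 at day 4, and the 4 epiblast-like markers to 115 to 138 FPKM at day 0 and to 376 to 560 at day 4.

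The listed B1 copies were spread over all ages of the family. B1_Mus1 (1061 copies), B1_Mus2 (906) and B1_Mm (380) made up the youngest group, with 2347 copies. The 4 B1_Mur names held 1846 copies, the 3 B1F names 965 and the 5 PB1 names 2130. A last name, FAM, the name of an early free monomer, was listed with 1 copy. The lengths implied by the steps ran from 45.0 to 164 bases with a median of 128, and the median fell with age, from 144 bases for B1_Mus1 and 141 for B1_Mm through 132 to 134 for the B1_Mur names and 118 to 121 for the B1F names to 90.8 for PB1D11. The copies are numbered within each name, and the listed copies came to 17.3% of the sum of the highest numbers, 42169. By name this share was lowest for B1_Mm (13.6%) and highest for PB1D9 (25.5%), with FAM, a single copy, left aside.

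Older groups of names had higher levels per length than younger ones. Averaged over the 9 libraries, the mean was 4.58 FPKM per copy for B1_Mm and B1_Mus, 5.31 for B1_Mur, 6.24 for B1F and 6.57 for PB1, and the median was 1.82, 2.04, 2.45 and 2.85 FPKM. This order of the 4 means was the same in each of the 9 libraries, as the plot of levels by group of names shows. Single names did not all follow it. B1_Mur4 had a mean of 4.42 FPKM, below B1_Mus1 (4.48), B1_Mus2 (4.53) and B1_Mm (4.98), and B1_Mur3 (6.45) was above B1F (5.61). Shorter copies reach a given FPKM with fewer reads, so the step of 1 read is itself larger for the older names. B1F1 had the highest mean of any name, 8.14 FPKM, of which 21.8% came from 1 copy, B1F1 dup960. Among the other names of more than 1 copy, the highest such share was in B1_Mur3, where dup840 gave 10.8% of the sum. Most copies were low: 1751 B1 copies (24.0%) had a mean of at least 5 FPKM and 23 (0.316%) at least 100, against 24.2% and 0.907% of all listed copies.

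**Figure D1:**
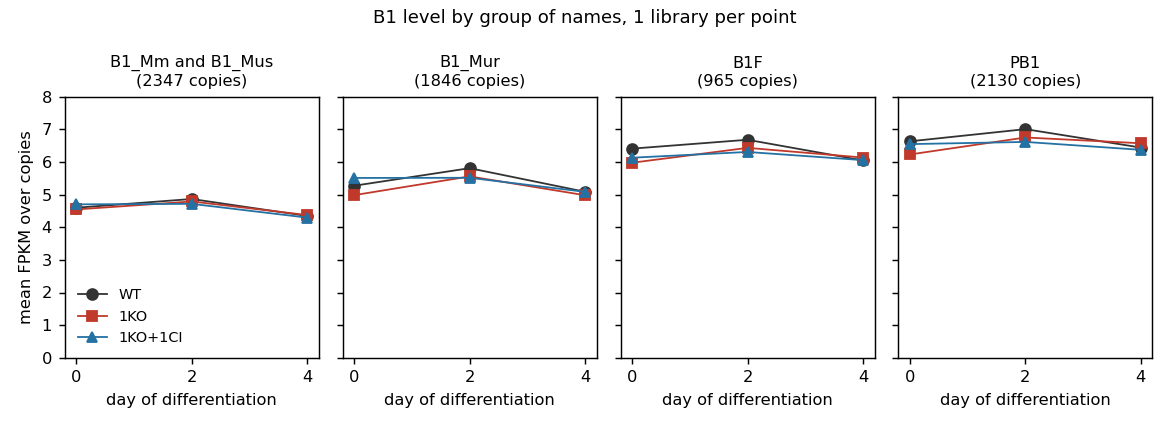
Mean FPKM over the copies of each group of B1 names (vertical axis, linear from 0) against the day of differentiation, with 1 point per library and a colour and symbol per line. The groups of names keep their order in every library, from 4.58 FPKM on average for B1_Mm and B1_Mus to 6.57 for PB1, and the 3 lines lie close together at each day.

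The 1st comparison asks whether RNA read on B1 copies changes when DNMT1 is lost. These poly(A) libraries do not separate polymerase III transcripts of the elements from RNA of the genes around them. The B1 values here and below are thus no measure of transcription of the elements by polymerase III alone. At day 0 the mean over all B1 copies was 5.60 FPKM in WT and 5.34 in 1KO, a difference of -0.06 in log2(mean FPKM + 1) or -4.73% of the mean. WT and 1KO cells of day 2 had means of 5.97 and 5.77 FPKM (-3.28%), and those of day 4 had 5.37 and 5.40 (0.620%). No difference came near the log2 size of 0.5 that the study used for repeat families. The ratio of B1 read shares, 1KO over WT, for days 0, 2 and 4 was 0.960 (95% exact binomial interval 0.952 to 0.968), 0.968 (0.960 to 0.976) and 1.01 (0.998 to 1.02). These intervals cover counting error only and leave out the spread between cultures, which single libraries cannot give. Over the 3 days the level was 2.73 ± 0.07 (SD, n = 3) for WT, 2.70 ± 0.05 for 1KO and 2.71 ± 0.04 for 1KO+1CI, in log2(mean FPKM + 1). An exact permutation test gave a two-sided p of 0.6 for 1KO against WT, where 3 libraries against 3 cannot go below 0.1. This test, here and in the other line comparisons, did not match libraries by day. Differences between days thus count as spread within a line, in the SDs and in p. In such bulk libraries, fewer cells with a transcript and less of it per cell cannot be told apart.

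The middle of the B1 copies moved a little more than the mean. From WT to 1KO the median differences per copy at days 0, 2 and 4 were -0.16, -0.05 and -0.01, in log2(FPKM + 1), beside -0.10, -0.05 and -0.01 over all listed copies. At day 0, 1094 B1 copies (15.0%) were over 0.5 and 2100 (28.8%) under -0.5. The background shares over all copies were 15.2% over and 23% under. With libraries scaled by the median ratio of the repeat table, which moves the 1KO against WT difference at day 0 by 0.16, the counts were 1481 over and 1809 under. At day 2, 1361 B1 copies were over 0.5 and 1718 under -0.5, with background shares of 17.8% and 19.7%. At day 4 the balance was the other way, with 1712 over and 1357 under beside 20.6% and 15.2% of all copies.

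The lean to lower values at day 0 lay in the weakly read copies. Among the 1751 B1 copies with a mean of at least 5 FPKM the median difference from WT to 1KO was -0.04 at day 0, and the mean was 1.35% higher in 1KO. In the 2475 copies between 1 and 2 FPKM it was -0.21, in the 810 between 10 and 50 FPKM it was 0.01, and in the 78 copies of at least 50 FPKM it was 0.26. For all listed copies in the same ranges the medians were -0.18, 0.01 and 0.06. The day 0 library of 1KO was the most deeply sequenced, at 1.36 times the counted reads of WT. A copy on 1 read has a lower FPKM in a deeper library, and the part of depth in the lean was not tested.

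**Figure D2:**
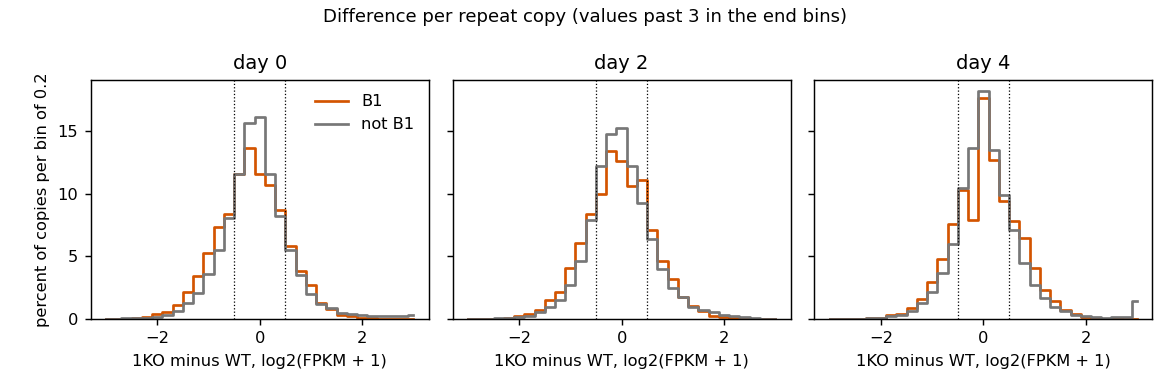
Difference between 1KO and WT in log2(FPKM + 1) for single repeat copies at days 0, 2 and 4 (horizontal axis), as the percent of copies in each bin (vertical axis), for B1 and for all copies that are not B1, with dotted lines at 0.5 and -0.5. The B1 curve lies to the left of the other at day 0, where 28.8% of B1 copies were under -0.5, and more of it lies past the dotted lines at all 3 days.

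From WT to 1KO, 43.8%, 42.2% and 42.1% of B1 copies were past 0.5 in either direction at days 0, 2 and 4, beside 38.2%, 37.5% and 35.8% of all copies. The share differed by level. At day 2 it was 34.7% for copies below 1 FPKM, 49.0% between 1 and 2 FPKM, 46.6% between 2 and 5, 35.8% between 5 and 10, 26.9% between 10 and 50 and 14.1% at 50 FPKM or more. All listed copies in the same ranges gave 25.6%, 43.6%, 46.0%, 45.7%, 33.2% and 15.4%. Above 5 FPKM the B1 share was thus below that of all copies at day 2 in each range, and at day 0 it was above it in the highest range, 28.2% against 24.3%.

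**Figure D3:**
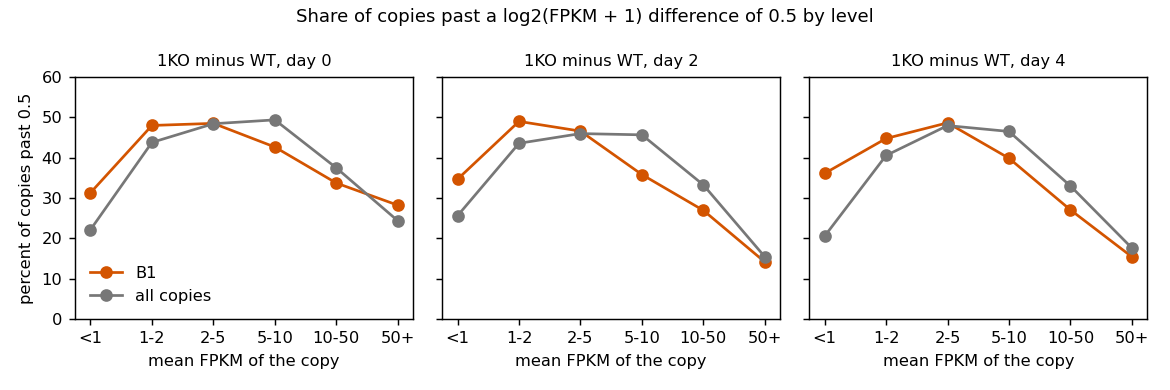
Percent of copies with a difference of more than 0.5 in log2(FPKM + 1) between 1KO and WT (vertical axis) by the mean FPKM of the copy over the 9 libraries (horizontal axis, 6 ranges), for B1 and for all listed copies at days 0, 2 and 4. For B1 the share is largest in the ranges from 1 to 5 FPKM and is lower above them, down to 14.1% of the 78 B1 copies of at least 50 FPKM at day 2.

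Differences of whole names were small. At day 0, 14 of the 15 names with more than 1 copy were lower in 1KO than in WT, between -0.12 for B1_Mur4 and 0.01 for PB1, with a median of -0.08. At day 2, 13 of 15 were lower, between -0.09 for B1_Mur3 and 0.01 for B1F1, and at day 4, 7 of 15 were lower, between -0.08 for PB1D11 and 0.07 for PB1. None of the 15 passed 0.5 on any of the 3 days, where 18.6%, 16.4% and 15.8% of all 1042 repeat names did. The 15 are means over 152 (PB1) to 1061 (B1_Mus1) copies, while most of the 1042 names are means over fewer copies. The shares are thus not of like names, and the part of this averaging was not tested. FAM, whose value is that of 1 copy, differed by -0.82, -0.07 and 1.85. It read 3.46, 1.52 and 1.79 FPKM in WT, 1KO and 1KO+1CI at day 0, 6.43, 6.08 and 4.66 at day 2, and 1.36, 7.52 and 3.50 at day 4, so no line was high throughout.

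A difference between lines that is shared by the 3 days can be tested with the day as a covariate, which leaves 4 residual degrees of freedom (limma, Benjamini-Hochberg over all names or all copies, called at an adjusted p under 0.05). By names, 0 of the 16 B1 names were called for 1KO against WT, where 0.192% of all names were, and 0 had an unadjusted p under 0.05. The effects of the 15 larger names lay between -0.09 (SE 0.07, B1_Mur3, limma adjusted p = 0.742) and 0.01 (SE 0.08, PB1, limma adjusted p = 0.953). limma draws the variance of each name towards that of all 1042 names. The residual SDs of the 15 names themselves ran from 0.014 (B1_Mm, SE 0.07) to 0.059 (B1_Mur1, SE 0.08). The lack of calls by name, here and in the other contrasts, thus cannot exclude small shared effects. Among copies, limma called 0 of the 7289 for 1KO against WT (background 0%), with 646 (8.86%) at an unadjusted p under 0.05 beside 9.54% of all copies. Without the day 4 library of 1KO+1CI, 2 B1 copies were called. Of the 646, 228 were higher and 418 lower in 1KO. The median effect over B1 copies was -0.05, -0.03 with repeat-table scaling and -0.0004 without the day 0 library of 1KO. The lean to lower values across the days thus leaned on that library. The table of all copies had 1849 higher and 1814 lower at that limit.

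**Figure D4:**
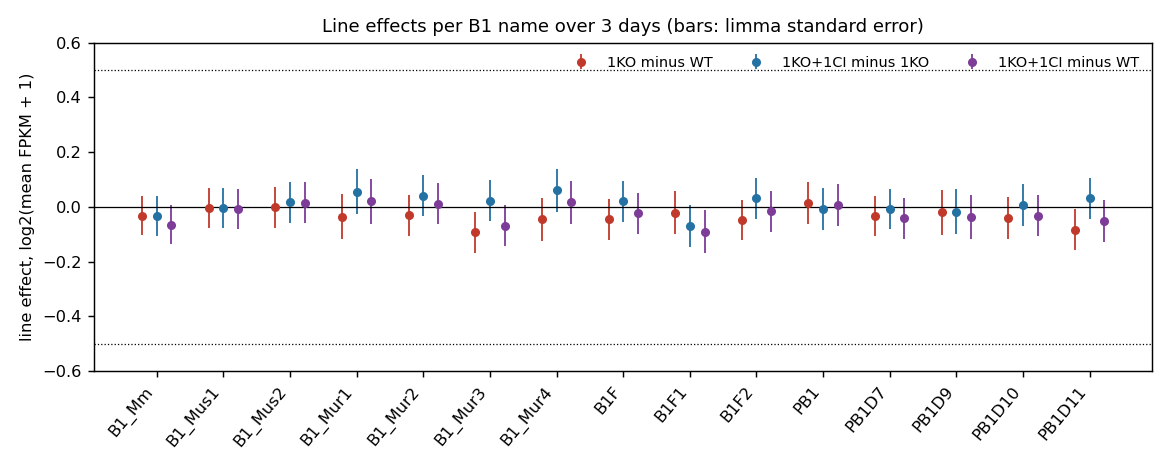
Effect of the line over the 3 days in log2(mean FPKM + 1) for the 15 B1 names with more than 1 copy (vertical axis; bars are limma standard errors), for 1KO minus WT, 1KO+1CI minus 1KO and 1KO+1CI minus WT, with dotted lines at 0.5 and -0.5. All effects lie near 0, between -0.09 and 0.06.

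The 3 libraries of 1KO lay wholly above the 3 of WT for 219 B1 copies (3.00%, background 5.04%) and wholly below for 464 (6.37%, background 5.34%). Past 0.5 on all 3 days were 69 copies in the upward direction (0.947%, background 2.51%) and 119 in the downward direction (1.63%, background 1.33%). The upward share was thus below, and the downward share above, that of all listed copies. These shares were not retaken without the day 0 library of 1KO.

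The 2nd comparison asks whether inactive DNMT1 changes B1 RNA in the knockout. From 1KO to 1KO+1CI the mean over all B1 copies went from 5.34 to 5.63 FPKM at day 0 (5.56%), from 5.77 to 5.68 at day 2 (-1.58%) and from 5.40 to 5.33 at day 4 (-1.27%). The median differences per copy were 0.11, -0.01 and -0.03, beside 0.08, -0.01 and 0.01 over all copies. At day 0, 1873 B1 copies (25.7%) were over 0.5 and 1056 (14.5%) under -0.5, beside background shares of 19.2% and 13.6%. With repeat-table scaling, a shift of -0.15, the counts were 1581 and 1435. At day 2 they were 1436 and 1444 (background 15.6% and 15.3%), and at day 4 they were 1263 and 1608 (background 14.8% and 16.9%). The exact permutation test over the 3 days gave p = 1 for the B1 level, two-sided. Of the 15 larger names, 12 were higher in 1KO+1CI at day 0, 2 at day 2 and 8 at day 4, within -0.11 (PB1D9, day 4) and 0.17 (B1_Mur1, day 0). So 0 passed 0.5 where 12.9%, 13.1% and 11.8% of all names did, most of which are means over fewer copies.

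limma called 0 B1 names and 0 B1 copies for 1KO+1CI against 1KO (background 0% in both tables), with 0 names and 476 copies (6.53%) at an unadjusted p under 0.05 beside 4.85% of all copies. The smallest adjusted p of a B1 copy was 0.996. The libraries of 1KO+1CI lay wholly above those of 1KO for 336 B1 copies (4.61%, background 3.7%) and wholly below for 274 (3.76%, background 3.03%). Over 0.5 on all 3 days were 89 (1.22%, background 0.821%), and under -0.5 were 58 (0.796%, background 0.589%).

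The study looked for repeat families that rise in 1KO ESCs and fall back in 1KO+1CI ESCs, with both log2 fold changes past 0.5. Here the rule was put to single copies, with differences of log2(FPKM + 1), and also at days 2 and 4. The counts are thus not those of the study's measure. At day 0, 357 B1 copies (4.90%) had this pattern and 968 (13.3%) had its mirror, a low 1KO value with a high 1KO+1CI value. The background shares were 5.66% and 9.29% of all copies. At day 2 the B1 counts were 547 (background 5.93%) and 681 (background 6.95%), and at day 4 they were 736 (background 7.67%) and 501 (background 5.56%). Both differences use the same 1KO library, so 1 high or low value in it fills both. Among the 1751 B1 copies of at least 5 FPKM the pattern held for 56 (3.20%), 53 (3.03%) and 76 (4.34%) at days 0, 2 and 4, where the background over the 9299 listed copies of that level was 8.69%, 4.03% and 4.75%. Its mirror held for 136 (7.77%), 76 (4.34%) and 94 (5.37%), beside 6.77%, 5.76% and 6.18%.

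1KO+1CI and WT cells, both with DNMT1 protein but only the WT with its activity, were also compared. The means of 5.63 and 5.60 FPKM at day 0, 5.68 and 5.97 at day 2, and 5.33 and 5.37 at day 4 differed by 0.572%, -4.80% and -0.660%. Past 0.5 were 1476 B1 copies upward and 1714 downward at day 0 (background 18.4% and 19.6%), 1443 and 1725 at day 2 (background 18.7% and 19.4%), and 1576 and 1542 at day 4 (background 19.7% and 17.1%). All 15 larger names stayed within -0.16 and 0.13 on the 3 days. None passed 0.5 where 18.9%, 19.5% and 17.5% of all names did, most of which are means over fewer copies. The libraries of 1KO+1CI lay wholly above those of WT for 319 B1 copies (4.38%, background 5.73%) and wholly below for 399 (5.47%, background 4.67%), and the difference was over 0.5 on all 3 days for 84 (1.15%, background 2.44%) and under -0.5 for 107 (1.47%, background 1.35%). limma called 0 of the 16 names (background 0.192%) and 1 of the 7289 copies, higher in 1KO+1CI (background 0.00521%, 2 of 38385).

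That copy, B1_Mus1 dup1291, read 1.39, 6.64 and 10.5 FPKM in WT, 1KO and 1KO+1CI at day 0, 1.76, 10.2 and 19.1 at day 2, and 0.683, 5.04 and 10.2 at day 4. The order of the lines was the same on each day, and the highest WT value was below the lowest of either other line. The WT values stood on 4, 6 and 2 reads, those of 1KO on 26, 30 and 16, and those of 1KO+1CI on 35, 57 and 29. The ratio of 1KO to WT was 4.78 (exact 95% interval 1.66 to 18.8) at day 0, 5.78 (2.37 to 17.0) at day 2 and 7.38 (1.73 to 66.1) at day 4. The limma effect was 2.62 (SE 0.20, adjusted p = 0.0420) for 1KO+1CI against WT and 1.85 (SE 0.20, adjusted p = 0.125) for 1KO against WT. The call was lost when any 1 of the 9 libraries was left out, with adjusted p between 0.0779 and 0.400, while the effect stayed between 2.52 and 2.76. The sum of feeder fibroblast markers had the same order of the lines, at 115, 279 and 299 FPKM at day 0, 16.5, 32.1 and 48.3 at day 2, and 16.6, 19.8 and 38.1 at day 4, and its part in this copy was not tested.

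Other copies had a limma adjusted p of 0.125 for 1KO against WT, above the limit of 0.05. That value was also the smallest among all 38385 copies in this contrast. PB1D11 dup195 read 8.03, 4.36 and 5.07 FPKM in WT at days 0, 2 and 4, 15.6, 16.8 and 15.1 in 1KO, and 17.8, 11.1 and 12.2 in 1KO+1CI. Its WT values were all below those of both other lines, with a limma effect of 1.34 (SE 0.23, adjusted p = 0.125) for 1KO against WT. B1_Mur2 dup711 read 0.344, 1.16 and 0.339 FPKM in WT, on 1, 4 and 1 reads, 2.28, 4.37 and 2.19 in 1KO, and 1.78, 6.64 and 2.44 in 1KO+1CI. WT was lowest on each day (1KO against WT 1.28, SE 0.22, limma adjusted p = 0.125), and the effect did not pass. B1F2 dup516 was the opposite case, with 4.62, 4.23 and 3.40 FPKM in WT, 1.70, 1.13 and 0.698 in 1KO and 2.33, 2.23 and 1.95 in 1KO+1CI. Here the 1KO values were the lowest of the lines on each day (1KO against WT -1.24, SE 0.20, limma adjusted p = 0.125).

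Copies with the largest differences at day 0 stood on 1 or 2 reads in 1 of the 2 libraries. At day 0 the highest difference from WT to 1KO was that of PB1D10 dup394, from 0.465 to 8.88 FPKM, or 1 to 26 reads (ratio 19.1, exact 95% interval 3.14 to 783). On days 2 and 4 the same copy read 6.29 and 5.48 FPKM in WT and 10.4 and 5.48 in 1KO, so the low WT value was that of 1 day. PB1D9 dup371 went from 0.465 to 6.15 FPKM at day 0, from 2.36 to 9.09 at day 2 and from 2.29 to 6.33 at day 4, so it was higher in 1KO on each day (limma effect 1.68, SE 0.35, adjusted p = 0.135). B1_Mus2 dup1889 was the lowest at day 0, at 9.80 FPKM in WT and 0.534 in 1KO (27 and 2 reads, ratio 0.0544, exact 95% interval 0.00627 to 0.217). It was also lower in 1KO at day 2, 10.7 against 4.97 FPKM, and at day 4, 5.36 against 1.98. These copies were picked for their extreme difference at day 0, and the intervals of day 0 do not allow for that choice.

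The largest differences at days 2 and 4 included better covered copies, none of which passed the test across the days. B1_Mm dup25, of the youngest name, read 5.05, 15.4 and 8.73 FPKM in WT, 1KO and 1KO+1CI at day 0, 5.98, 30.0 and 20.5 at day 2, and 2.32, 8.55 and 15.4 at day 4. WT was the lowest line on each day, with 1KO to WT ratios of 3.04 (exact 95% interval 1.71 to 5.75), 5.01 (3.09 to 8.48) and 3.69 (1.57 to 10.0), and a limma effect of 1.70 (SE 0.34, adjusted p = 0.126). B1_Mur2 dup527 read 26.6 and 27.4 FPKM in WT and 1KO at day 0, 7.01 and 15.9 at day 2, and 6.45 and 42.9 at day 4, with 23.0, 19.3 and 40.9 in 1KO+1CI. WT and 1KO were close at day 0, and at day 4, the comparison for which it was named, the ratio of 1KO to WT was 6.65 (exact 95% interval 4.10 to 11.4). That interval does not allow for the choice of the copy by this difference.

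B1_Mus1 dup999 was high in 1KO and low in 1KO+1CI. It read 4.38, 9.90 and 1.46 FPKM in WT, 1KO and 1KO+1CI at day 0, 4.27, 8.89 and 3.57 at day 2, and 2.65, 7.03 and 3.41 at day 4. The 1KO value was the highest on each day (1KO against WT 1.02, SE 0.30, limma adjusted p = 0.298; 1KO+1CI against 1KO -1.38, SE 0.30, limma adjusted p = 0.996). PB1D10 dup229 had this shape at day 4 alone, with 0.887, 11.0 and 0.914 FPKM on 2, 27 and 2 reads, and read 3.31 to 5.86 FPKM in the 6 other libraries.

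The copies with the highest levels varied with the day and the line. B1F1 dup960 read 556, 430 and 385 FPKM in WT, 1KO and 1KO+1CI at day 0, 247, 275 and 245 at day 2, and 507, 563 and 414 at day 4, so the day 2 values were the lowest in all 3 lines. PB1D9 dup1436 moved in the same way, with 252, 217 and 183 FPKM, then 120, 123 and 105, then 239, 272 and 211 (day 4 against day 2 1.04, SE 0.19, limma adjusted p = 0.0411). B1F1 dup1038 was highest at day 2, with 247, 270 and 212 FPKM, against 88.8, 153 and 123 at day 0 and 171, 179 and 187 at day 4. B1_Mur3 dup840 was highest in WT on each day, at 302, 131 and 135 FPKM, then 264, 192 and 191, then 410, 276 and 321 (1KO against WT -0.74, SE 0.23, limma adjusted p = 0.339). For dup960 and dup840 no step of 1 read could be found at these levels, so no counting interval is given.

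**Figure D5:**
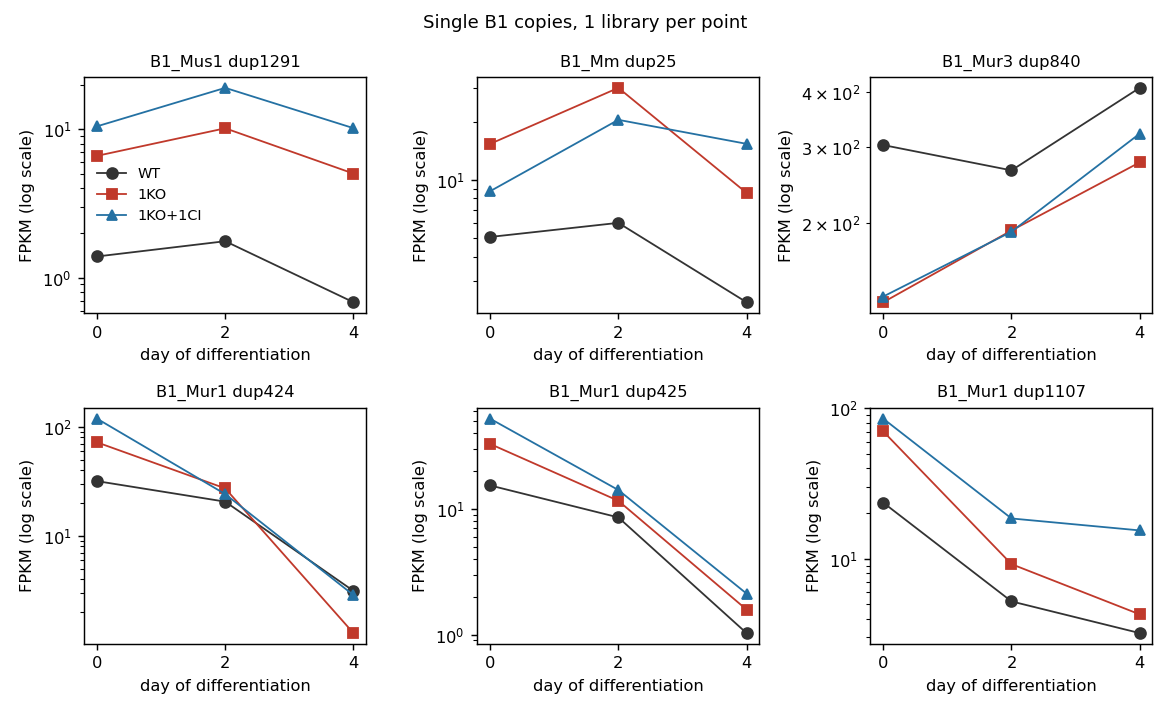
FPKM (vertical axis, log scale) against the day of differentiation for 6 single B1 copies, with 1 point per library and a colour and symbol per line. B1_Mus1 dup1291 and B1_Mm dup25 are lowest in WT on each day, B1_Mur3 dup840 is highest in WT, and the 3 B1_Mur1 copies fall from day 0 to day 4 in each line.

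Between days, the B1 mean was highest at day 2 in each line, by little in 1KO+1CI. The day 2 value was above that of day 0 by 6.57%, 8.19% and 0.877% for WT, 1KO and 1KO+1CI, and the day 4 value differed from that of day 2 by -10.1%, -6.43% and -6.14%. The 3 libraries of day 2 did not overlap those of day 0 or day 4 (2.77 ± 0.03, SD, n = 3, against 2.71 ± 0.04 and 2.67 ± 0.01 in log2(mean FPKM + 1)), which gives the smallest p that 3 against 3 can reach, 0.1, in the exact permutation test, two-sided. Repeats as a whole moved with them: the median ratio of all copies shifted between days 2 and 4 by 0.28 to 0.35 in log2, and with that scaling the B1 differences changed sign, to 0.17, 0.16 and 0.20 from day 2 to day 4. With scaling from the gene table the day 2 value of 1KO+1CI was lower than that of day 0, by -0.03, and among its copies of at least 5 FPKM it was so by -0.01. The log2 ratio of summed B1 to the summed FPKM of the 22390 copies that are not B1, B2 or B4 was -2.54 ± 0.07 (SD, n = 3) at day 0, -2.55 ± 0.06 at day 2 and -2.63 ± 0.05 at day 4, with an exact permutation p of 1 from day 0 to 2 and of 0.2 from day 2 to 4, two-sided.

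No B1 name was called between days (0 of 16 for day 2 against day 0, day 4 against day 2 and day 4 against day 0, beside 3.84%, 10.1% and 4.8% of all names), while single copies were. limma called 0 B1 copies from day 0 to day 2 (background 0.0521%). At an unadjusted p under 0.05 were 987 (13.5%), beside 18.8% of all copies. From day 2 to day 4 it called 25 higher (background 0.344%) and 106 lower (background 2.64%), together 1.80% of B1 copies beside 2.98% of all copies. With repeat-table scaling these were 24 and 24. From day 0 to day 4 it called 9 higher (background 0.148%) and 47 lower (background 0.659%), which was 0.768% of B1 copies beside 0.808% of all. Without the day 2 library of any 1 line, or the day 4 library of 1KO or 1KO+1CI, the call from day 2 to day 4 was 0 copies. From day 0 to day 4 it was 0 without the day 0 or day 4 library of 1KO or 1KO+1CI.

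Several of the falling copies, named for their small p after the values were seen, were B1_Mur1 copies with neighbouring numbers. B1_Mur1 dup424 read 31.7, 72.0 and 119 FPKM in WT, 1KO and 1KO+1CI at day 0, 20.5, 27.2 and 24.1 at day 2, and 3.12, 1.28 and 2.85 at day 4 (day 4 against day 0 -4.32, SE 0.41, limma adjusted p = 0.0104). B1_Mur1 dup425 fell from 15.4, 32.9 and 52.2 FPKM through 8.56, 11.6 and 14.1 to 1.03, 1.58 and 2.12 (-3.60, SE 0.26, limma adjusted p = 0.00499). In both, each line fell from day to day. B1_Mur1 dup1107 read 23.6, 70.1 and 85.2 FPKM at day 0, 5.21, 9.21 and 18.5 at day 2, and 3.21, 4.28 and 15.4 at day 4 (-2.90, SE 0.29, limma adjusted p = 0.0115), and its neighbour dup1108 read 8.22, 19.4 and 21.0, then 2.32, 2.01 and 1.98, then 0.674, 1.86 and 3.47 (-2.53, SE 0.33, limma adjusted p = 0.0235). At day 0 these copies were lowest in WT. The feeder fibroblast markers fell over the same days (6 of 6 called lower from day 0 to day 4, background 12% of all genes, Col1a1 from 39.0, 76.0 and 74.4 FPKM to 5.07, 3.76 and 9.86) and were also lowest in WT at day 0. Of the 6 pluripotency markers, 4 were called lower from day 0 to day 4. Klf4, with the lowest effect, read 30.3, 63.1 and 67.1 FPKM at day 0 and 0.749, 1.23 and 2.46 at day 4, while the effect of Pou5f1 was 0.105. The part of either cell type in the fall of the B1_Mur1 copies was not tested.

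Other copies had their lowest values at day 4, by different courses. B1_Mur3 dup373 read 33.5, 36.6 and 42.7 FPKM at day 0, 38.6, 37.0 and 44.4 at day 2, and 12.4, 8.42 and 11.3 at day 4 (day 4 against day 2 -1.82, SE 0.21, limma adjusted p = 0.0199), with days 0 and 2 close together. B1_Mur3 dup578 read 12.0, 11.8 and 11.3 FPKM at day 2 and 1.79, 0.993 and 0.740 at day 4 (-2.57, SE 0.25, limma adjusted p = 0.0199), with 6.57 to 10.7 at day 0, below day 2 in each line. B1F dup502 read 32.4, 9.84 and 21.6 FPKM at day 0, 26.7, 4.64 and 7.49 at day 2, and 1.27, 0.783 and 0.438 at day 4. Its values were lower at day 2 than at day 0 in each line. WT was its highest line on each day, and the effect did not pass (1KO against WT -1.42, SE 0.37, limma adjusted p = 0.226).

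Copies with neighbouring numbers in a name varied together more often than distant ones. Over the 9 libraries, Pearson's r was over 0.8 for 48 of 2188 pairs (2.19%) of B1 copies with consecutive numbers, and for 0.668% of the pairs at least 100 numbers apart. Among copies of at least 5 FPKM it was 22 of 166 pairs (13.3%) against 1.10%. The points share the 9 libraries and their depth, and pairs share copies, so this is a description without a test. The files give no positions, so whether such pairs lie in 1 transcript was not tested.

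B1 was also set beside B2 and B4, the other large SINE groups of the mouse (8706 listed copies). The log2 ratio of summed B1 to summed B2 and B4 FPKM lay between 0.52 and 0.67 in the 9 libraries. It was 0.58 ± 0.06 (SD, n = 3) for WT, 0.60 ± 0.05 for 1KO and 0.60 ± 0.07 for 1KO+1CI, and the exact permutation test gave p = 0.7 for 1KO against WT and p = 0.9 for 1KO+1CI against 1KO, two-sided. As a difference of mean log2(FPKM + 1), which weighs each copy alike, B1 against B2 and B4 was 0.45 ± 0.01 for WT, 0.42 ± 0.01 for 1KO and 0.43 ± 0.02 for 1KO+1CI. On this measure the 3 libraries of 1KO lay below those of WT (exact permutation p = 0.1, the smallest possible), opposite in direction to the ratio of sums. Against the copies that are not B1, B2 or B4 the same measure was 0.11 ± 0.06 for WT, 0.04 ± 0.01 for 1KO and 0.04 ± 0.08 for 1KO+1CI, again without overlap of WT and 1KO (exact permutation p = 0.1), while the log2 ratio of sums gave p = 0.2 (-2.51 ± 0.05 and -2.60 ± 0.03). By day the ratio of summed B1 to summed B2 and B4 was lowest at day 2, at 0.53 ± 0.02 against 0.60 ± 0.03 at day 0 and 0.65 ± 0.01 at day 4 (exact permutation p = 0.1 for each pair of days, the smallest possible). As a difference of mean log2(FPKM + 1) it was 0.44 ± 0.01, 0.43 ± 0.03 and 0.44 ± 0.01 at days 0, 2 and 4. There the exact permutation p was 0.7 from day 0 to 2, 0.4 from day 2 to 4 and 0.7 from day 0 to 4. The separation of the days thus depended on the measure. Of the small RNAs that share ancestry with B1 or resemble it, 7SLRNA copies had a mean of 5.33 to 12.6 FPKM over 7 copies and 4.5SRNA copies 7.07 to 15.5 FPKM over 7 copies. Both read higher at day 4 than at day 0 in each line.

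Of the genes that transcribe, bind or silence such elements, few were called between lines, and the lack of a call does not show that a gene was unchanged. Of 31 measured genes of RNA polymerase III and its factors (TFIIIA, TFIIIB, TFIIIC and regulators), limma called 0 for 1KO against WT, where 0.61% of all genes were higher and 0.935% lower. The list's median effect was 0.05 beside 0.0047 over all genes, and its members ran from -0.67 for Polr3gl to 0.33 for Polr2e. Of the 31 effects, 19 were above 0. Brf2 was lower in 1KO than in WT on each day (-0.54, SE 0.14, limma adjusted p = 0.117) and did not pass. Polr3gl, an alternative subunit of the enzyme, read 11.7, 4.11 and 5.11 FPKM in WT, 1KO and 1KO+1CI at day 0, 6.02, 2.19 and 1.15 at day 2, and 1.10, 1.84 and 0.576 at day 4, and it fell with the day (day 4 against day 0 -1.80, SE 0.33, limma adjusted p = 0.0102). Its paralog Polr3g, the subunit of pluripotent cells, stayed at 24.1 to 30.7 FPKM in all 9 libraries. Of the 8 genes of the signal recognition particle, whose Srp9 and Srp14 proteins bind the 7SL-derived fold, 0 were called for any pair of lines, with effects from -0.24 (Srp54a) to 0.21 (Srp19) for 1KO against WT. Over all genes the shares called were 1.55% for 1KO against WT, 0.00663% for 1KO+1CI against 1KO and 3.93% for 1KO+1CI against WT. At such shares a list of 8 genes can hold 0 calls without differing from all genes.

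Among 16 genes that sense or process double-stranded RNA, which paired B1 copies can form, 1 was called for 1KO against WT (background 1.55% of all genes). Zbp1, a sensor of Z-form nucleic acid, read 2.08, 5.34 and 7.25 FPKM in WT, 1KO and 1KO+1CI at day 0, 0.0735, 1.08 and 1.54 at day 2, and 0.0665, 1.54 and 2.09 at day 4. It was lowest in WT on each day (1KO against WT 1.08, SE 0.10, limma adjusted p = 0.0124), and the list had 0 calls without any 1 of the 3 libraries of 1KO and 2 without that of WT at day 4. The list's median effect was 0.07, and 9 of the 16 effects were above 0. Oas1a was lowest in WT on each day and did not pass (1KO against WT 1.07, SE 0.20, limma adjusted p = 0.0540). It read 1.31, 6.455 and 3.42 FPKM in WT, 1KO and 1KO+1CI at day 0, 0.436, 1.82 and 0.825 at day 2, and 0.278, 0.868 and 0.5 at day 4. Of 19 genes of DNA methylation and chromatin silencing, 1 was called lower in 1KO, Dnmt1 itself (-2.13, SE 0.29, limma adjusted p = 0.0285), the targeted gene, and 9 of the 19 had effects above 0, up to 1.07 for Dnmt3l, which did not pass. For 1KO+1CI against 1KO the list had 1 call, Dnmt1 (3.61, SE 0.29, limma adjusted p = 0.0448), the only call among all 15074 genes (0.00663%). The Pol III, signal recognition particle and double-stranded RNA lists had 0, which at that share says nothing particular about their genes. The call of Dnmt1 was lost with a pseudocount of 0.1, for 1KO against WT without 6 of the 9 libraries (all but 1KO+1CI at days 0 and 2 and WT at day 4), and for 1KO+1CI against 1KO without any but that of 1KO+1CI at day 2.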

How the data were processed

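Poly(A) RNA of 9 libraries, 1 per line and day, was sequenced by the authors as paired reads. Per the labels and the study's methods, the authors trimmed with Trim Galore, aligned to mm10 with HISAT2, used SAMtools and counted with HOMER's analyzeRepeats.pl, and deposited FPKM values per gene and per repeat copy. Not given in the sources used here were tool versions, the strand setting and how multi-mapped reads were handled, and reads of near-identical B1 copies can be split or misplaced. No value is 0, and no positions or lengths are given. Of 15095 gene entries, 21 without a usable symbol were left out.

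B1 copies were rows of class SINE and family Alu. 2 entries share 1 copy number. Values were compared as log2(FPKM + 1). Whole reads were sought as a step of which all 9 values are multiples (within 0.0005 FPKM plus 0.01%, and 0.15 of a step): 99.3% of B1 copies had one, and 0% of 2000 randomly shifted sets. Relative depth came from ratios between libraries. Absolute depth was sought in 1850 genes with 1 transcript, of which 9 had a step. Of these, 6 gave the same value within 0.5% and set the depth, so depths and lengths are approximate. A read pair counted as 2 would widen the intervals.

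Single libraries were compared without a test, at a log2 size of 0.5. Lines and days were tested with limma 3.58.1 (R 4.3.3) on all 38385 copies, 1042 names or 15074 genes with line and day as terms, with Benjamini-Hochberg adjustment at 0.05. Any line difference that changes with the day counts as error there. With 1 culture per condition the p-values rest only on the spread between these libraries, pooled in part over all copies, names or genes tested. The fit was tested on simulated data. Means over 3 libraries were compared by exact permutation (scipy 1.17.1), without matching by day or line. Named copies were, in each comparison of 1KO with WT or 1KO+1CI with 1KO at a day, the 3 highest and 3 lowest of at least 1 FPKM, the 5 of highest mean, and the 5 of smallest p for each pair of lines; those of smallest p between days were added after the values were seen. Text examples come from these, and their counting intervals do not allow for the choice. The lowest member of 1 gene list is not reported here. The members and lists were chosen with earlier results of these data known. Alternatives were pseudocounts of 0.1 and 0.01, scaling by genes or by repeats, filters, a threshold of 1, and leaving out libraries.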

Additional observations from a re-analysis of the deposited data

Results flagged for a closer look

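Among the 64 named copies, 3 differed between 1KO+1CI and 1KO by more than 0.5 in opposite directions on different days, with counting intervals that leave out a ratio of 1 on each of those days. The difference between days was not tested, since each value is that of 1 library against 1. All 3 copies were named for an extreme difference that bears on these values: dup1905 among the lowest of 1KO+1CI against 1KO at day 2, dup1134 among the highest at day 4, and dup25 among the highest of 1KO against WT at day 2, which shares the 1KO library. Intervals that leave out 1 on those days may thus come in part from the choice. B1_Mm dup25 was lower in 1KO+1CI by -0.75 at day 0 and -0.53 at day 2 and higher by 0.78 at day 4, in log2(FPKM + 1), with 28 to 91 reads in these 6 libraries. PB1D9 dup1905 was higher by 1.34 at day 0 and lower by -2.41 at day 2, on 3 and 10 reads and on 14 and 1. B1_Mur3 dup1134 was lower by -1.49 at day 0 and higher by 2.13 at day 4, on 14 and 2 reads and on 1 and 14.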

How the results depend on the processing

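The labels give no replicate numbers to pair by. Libraries of the same day were matched through the day term of the limma line comparisons, and without that term limma called 0 B1 copies for each pair of lines. The exact permutation tests did not match by day. Of the values and counts that answer a comparison, 388 moved by less than the spread (counts by less than 1.5 times) or, for the ratio to B2 and B4, kept their sign, 119 moved further, and 3 ratios took the other sign. Of the B1 level differences, 22 of 144 changed sign, namely 13 of 18 with scaling from repeats, 6 of 18 among copies of at least 5 FPKM, 2 of 18 by the median over copies and 1 of 18 with scaling from genes; of the single named effects, 534 kept their side of the threshold, 18 passed it and 57 no longer did. The spread for the B1 level was the residual SD of the fit with line and day, 0.03.

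With scaling from repeats, the B1 level difference from WT to 1KO was 0.079 at day 0 and -0.046 at day 4, from 1KO to 1KO+1CI -0.062 and 0.027 at the same days, from day 0 to 2 -0.10, -0.22 and -0.18 in WT, 1KO and 1KO+1CI, from day 2 to 4 0.17, 0.16 and 0.20, and from day 0 to 4 0.062, -0.064 and 0.025. With scaling from genes, 1KO+1CI differed by 0.096 from 1KO and 0.049 from WT at day 0, and its day 2 and day 4 values by -0.034 and -0.095 from day 0. By the median over copies, 1KO differed from WT by -0.22, -0.069 and 0.088 at days 0, 2 and 4, 1KO+1CI from 1KO by 0.16 and -0.088 at days 0 and 4 and from WT by -0.054 at day 0, day 4 from day 2 by -0.30, -0.14 and -0.21 in WT, 1KO and 1KO+1CI, day 4 from day 0 by -0.23, 0.072 and -0.18, and day 2 from day 0 by 0.22 in 1KO. For copies of at least 5 FPKM, an alternative chosen after seeing the data, 1KO differed from WT by 0.018 and -0.024 at days 0 and 4, 1KO+1CI at day 0 from 1KO by 0.020 and from WT by 0.039, day 4 from day 2 by -0.066 in WT and -0.025 in 1KO+1CI, day 4 from day 0 by 0.023, -0.020 and -0.033 in WT, 1KO and 1KO+1CI, and day 2 from day 0 by 0.050 in 1KO. Without the 10 highest copies, 1KO differed by -0.11 from day 2 to 4.

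With a threshold of 1, the B1 copies past it at days 0, 2 and 4 were 1020, 882 and 845 for 1KO against WT, 717, 792 and 800 for 1KO+1CI against 1KO, and 992, 988 and 928 for 1KO+1CI against WT. For this threshold and the limma settings that follow, no share over all copies was taken. The counts thus show only how the B1 numbers move with the setting. limma called 3 B1 copies for 1KO against WT with a pseudocount of 0.1, 1 with 0.01, 6 among copies of at least 1 FPKM and 4 with a trend in the prior variance. For 1KO+1CI against WT it called 0 with either pseudocount, 0 with no day term and 6 with the trend. For day 2 against day 0 it called 4 among copies of at least 1 FPKM and 7 with the trend, for day 4 against day 2 58 with a pseudocount of 0.01 and 48 with scaling from repeats, and for day 4 against day 0 16 and 9 with pseudocounts of 0.1 and 0.01. Leaving out 1 library at a time gave 0 to 2 copies for 1KO against WT, 0 to 0 for 1KO+1CI against WT, 0 to 91 for day 4 against day 2 and 0 to 43 for day 4 against day 0, each fit assuming that single libraries vary alike. The silencing list had 0 calls in all 3 pairs of lines with a pseudocount of 0.1 and 0 to 1 with 1 library left out, the double-stranded RNA list 0 to 2 for 1KO against WT, and the Pol III list 0 to 1 for 1KO+1CI against WT. As a difference of mean log2(FPKM + 1), B1 against B2 and B4 was -0.026 for 1KO against WT, 0.012 for 1KO+1CI against 1KO and -0.013 for 1KO+1CI against WT, opposite in sign to the ratio of sums. The cause of these changes was not tested. A median of 5 to 8 reads per copy limits what single copies can show.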
